A study of Arabidopsis thaliana with 4 samples.

Results

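The genes described are 5 expansins, EXPA8, EXPA9, EXPA16, EXPB1 and EXPB3, and the xyloglucan endotransglucosylase/hydrolase XTH33, all of them genes of cell wall loosening. Each was taken by the probe set that the platform annotation gives to its locus alone, which gave 6 genes with 1 probe set each out of 13513 probe sets with a single gene and 22746 probe sets in all. They were measured on Affymetrix arrays in seedlings of Arabidopsis thaliana, ecotype Col-0, 10 days old and grown on Murashige-Skoog salts in long days at 23 °C. The 35S:miR396 group, of 2 arrays, holds plants that overexpress the microRNA miR396 from the 35S promoter of cauliflower mosaic virus, a promoter active in most plant tissues. The wild-type group, also of 2 arrays, shares the ecotype and growth conditions. The labels number the 35S:miR396 arrays 1 and 2 and the wild-type arrays 1b and 2, and do not say how many plants or which transgenic lines went into an array. Below, "number 2" is the pair of arrays with that label and "number 1" the pair labelled 1 and 1b. That these belong together is not stated in the labels.

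Plant cells enlarge when turgor stretches a wall that has been loosened. Expansins are secreted proteins that loosen the bonds between cellulose and the matrix polysaccharides without cutting them, and they work best in an acidified wall. Alpha-expansins (EXPA) and beta-expansins (EXPB) are the branches with shown wall-loosening activity, while expansin-like proteins (EXLA, EXLB) share the fold and their activity is less clear. Enzymes of the XTH family cut xyloglucan, a polysaccharide that coats cellulose, and rejoin it to another chain or to water. miR396 lowers transcripts of GROWTH-REGULATING FACTOR genes, transcription factors that promote cell proliferation in leaves.

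Signals are MAS5 intensities on a linear scale as the authors deposited them. The median signal of an array was 60.5 and 81.3 for 35S:miR396 1 and 2, against 72.8 and 71.3 for wild type 1b and 2, so each array was centred on its median log2 signal before ratios were formed. The number of arrays limits the precision, and p-values measure the spread between these arrays, which may be technical. In the fit between the numbers, each number holds an array of each genotype, so the error includes the difference between the genotypes. All 6 genes passed the filter on low signals, which kept 15922 probe sets with a mean signal of at least 15.8. Of the seedling markers, genes of the leaf light-harvesting antenna and photosystem (LHCB4.1, LHCB4.2 and PSBW, summed signal 28026 to 32725 per array) and the root beta-glucosidase PYK10 (1195 to 1497) were read on every array. Of 7 xylem and 5 epidermis markers listed, 0 were paired with a probe set alone. The root hair expansins EXPA7 and EXPA18 lay under the filter, with signals of 3.3 to 20.1. EXPB5, listed as a flower or pollen marker that seedlings should lack, passed the filter with signals of 12.0 to 25.2. The signals of EXPA16, from 17.5 to 38.2, reach into that range. In RNA of whole seedlings, fewer cells that express a gene and less RNA per cell cannot be told apart.

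None of the 6 genes passed the test between 35S:miR396 and wild type, and 0 of 15922 tested probe sets did. Between the replicate numbers 3 of the 6 genes passed, in opposite directions. Over all tested probe sets 9.00% passed there as higher in number 2 and 9.94% as lower. The 6 genes were chosen with earlier results of these data known. EXPA8 and EXPB3 were higher on both arrays of number 2 than on both of number 1, by 4.53-fold and 2.58-fold. XTH33 was lower there, by 4.69-fold. EXPB1 had the lowest ratio of 35S:miR396 to wild type of the 6, 0.258 in number 1 and 0.642 in number 2. The ratio in number 1 rests on a signal of 6.6 on 35S:miR396 1, under the filter limit of 15.8, and the genotypes overlapped.

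**Figure D1:**
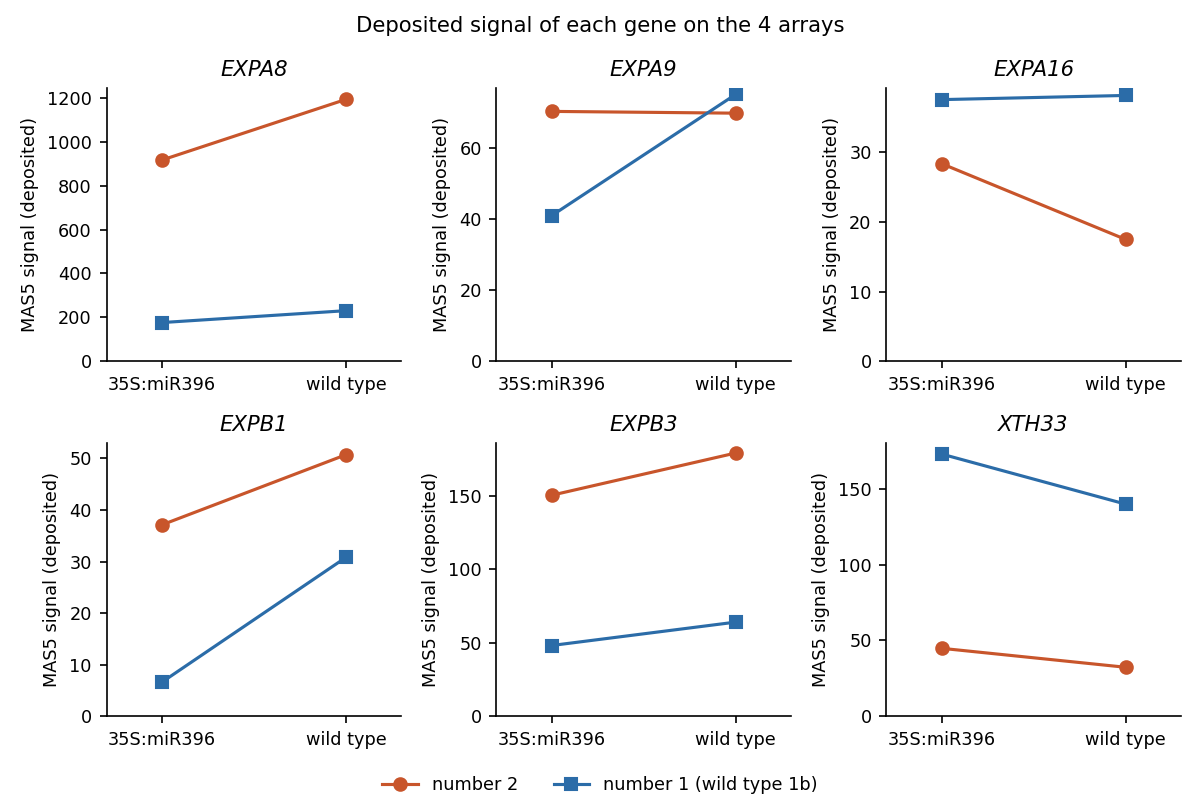
Deposited MAS5 signal (linear axis from 0, a separate scale for each gene) of the 6 genes on the 4 arrays, 35S:miR396 left and wild type right, with arrays of number 2 as circles and arrays of number 1 as squares. Each point is 1 array and lines join arrays of a number: for EXPA8, EXPB1 and EXPB3 the circles lie above the squares in both genotypes, and for EXPA16 and XTH33 below them.

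The alpha-expansin EXPA8 (AT2G40610) had signals of 175.9 and 916.5 in 35S:miR396 1 and 2, against 230.1 and 1193.1 in wild type 1b and 2. The arrays of number 2 were thus the high ones in both genotypes, and the genotypes overlapped. After centring, number 2 over number 1 was 3.88-fold in 35S:miR396 and 5.29-fold in wild type. The mean log2 difference of number 2 from number 1 was 2.18 ± 0.17 (SE, n = 2 each, limma 95% interval 1.79 to 2.57, adjusted p = 1.33e-04). Its size exceeded that of 99.5% of the tested probe sets. The log2 ratio of 35S:miR396 to wild type was -0.12 in number 1 and -0.57 in number 2. The genotype fit gave -0.35 with an interval from -2.97 to 2.28 (limma, adjusted p = 1.00), an interval wide enough to hold large differences in either direction.

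EXPA9 (AT5G02260), another alpha-expansin, differed little between the numbers. Its signals were 40.9 and 70.2 in 35S:miR396 1 and 2, against 75.0 and 69.7 in wild type 1b and 2. The array 35S:miR396 1 was low and the other 3 lay close together. The centred log2 ratio of 35S:miR396 to wild type was -0.61 in number 1 and -0.18 in number 2, and after centring both 35S:miR396 arrays lay below both wild-type arrays. This held for 10.7% of all tested probe sets in that direction, and in the deposited values the genotypes of EXPA9 overlapped, with a log2 ratio of 0.01 in number 2. The genotype fit gave a log2 fold change of -0.39 ± 0.24 (SE, n = 2 each, limma interval -1.01 to 0.23, adjusted p = 1.00). The difference between the numbers was 0.14 with an interval from -0.42 to 0.70 (limma, adjusted p = 0.743), and it was -0.17 without 35S:miR396 1.

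EXPA16 (AT3G55500), the third alpha-expansin, ran the other way from EXPA8 between the numbers. It had signals of 37.6 and 28.4 in 35S:miR396 1 and 2, against 38.2 and 17.5 in wild type 1b and 2. Both arrays of number 2 lay below both of number 1, and the genotypes overlapped. The log2 difference of number 2 from number 1 was -0.96 ± 0.33 (SE, n = 2 each, limma interval -1.71 to -0.22) and did not pass the threshold (adjusted p = 0.0755). The log2 ratio of 35S:miR396 to wild type was 0.24 in number 1 and 0.51 in number 2 after centring, and in number 1 it was -0.02 in the deposited values. The genotype fit gave 0.38 with an interval from -0.98 to 1.74 (limma, adjusted p = 1.00). Its signals are close to the filter limit, where MAS5 values are imprecise on the log scale.

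The beta-expansin EXPB3 (AT4G28250) followed the pattern of EXPA8. Its signals were 48.1 and 150.2 in 35S:miR396 1 and 2, against 64.0 and 178.9 in wild type 1b and 2. Number 2 was the higher pair in both genotypes, by 2.32-fold in 35S:miR396 and 2.85-fold in wild type after centring. The log2 difference of number 2 from number 1 was 1.36 ± 0.19 (SE, n = 2 each, limma interval 0.93 to 1.80, adjusted p = 0.00177). The log2 ratio of 35S:miR396 to wild type was -0.15 in number 1 and -0.44 in number 2. The genotype fit gave -0.29 with an interval from -1.99 to 1.40 (limma, adjusted p = 1.00).

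The other beta-expansin, EXPB1 (AT2G20750), was set apart by 1 array. It had signals of 6.6 and 37.1 in 35S:miR396 1 and 2, against 30.8 and 50.7 in wild type 1b and 2. The value on 35S:miR396 1 lies under the filter limit of 15.8, and that on 35S:miR396 2 lies between the wild-type values. The centred log2 ratio of 35S:miR396 to wild type was -1.96 in number 1, larger in size than that of 99.7% of tested probe sets, and -0.64 in number 2. A ratio at least 2-fold lower in number 1 was found for 1.16% of the tested probe sets. The genotype fit gave -1.30 ± 0.77 (SE, n = 2 each, limma interval -3.29 to 0.70, adjusted p = 1.00). Without 35S:miR396 1 the log2 fold change was -0.27, and without 35S:miR396 2 it was -2.33. Between the numbers EXPB1 was 1.41 higher in number 2 on the log2 scale (limma interval 0.04 to 2.77, adjusted p = 0.143), with a difference of 2.06 in 35S:miR396 and 0.75 in wild type. That difference passed without wild type 1b (2.38, limma adjusted p = 0.00649) and did not without 35S:miR396 1 (0.43, adjusted p = 0.529).

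XTH33 (AT1G10550), an XTH enzyme reported at the plasma membrane, was the member that was lower in number 2 and passed the test. It had signals of 172.8 and 44.8 in 35S:miR396 1 and 2, against 139.8 and 32.3 in wild type 1b and 2. Both arrays of number 2 were low, and the genotypes overlapped. Number 2 was 5.18-fold lower than number 1 in 35S:miR396 and 4.24-fold lower in wild type after centring. The log2 difference of number 2 from number 1 was -2.23 ± 0.23 (SE, n = 2 each, limma interval -2.76 to -1.70, adjusted p = 4.26e-04), larger in size than that of 99.6% of tested probe sets. The log2 ratio of 35S:miR396 to wild type was 0.57 in number 1 and 0.28 in number 2. The genotype fit gave 0.43 with an interval from -2.27 to 3.12 (limma, adjusted p = 1.00).

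**Figure D2:**
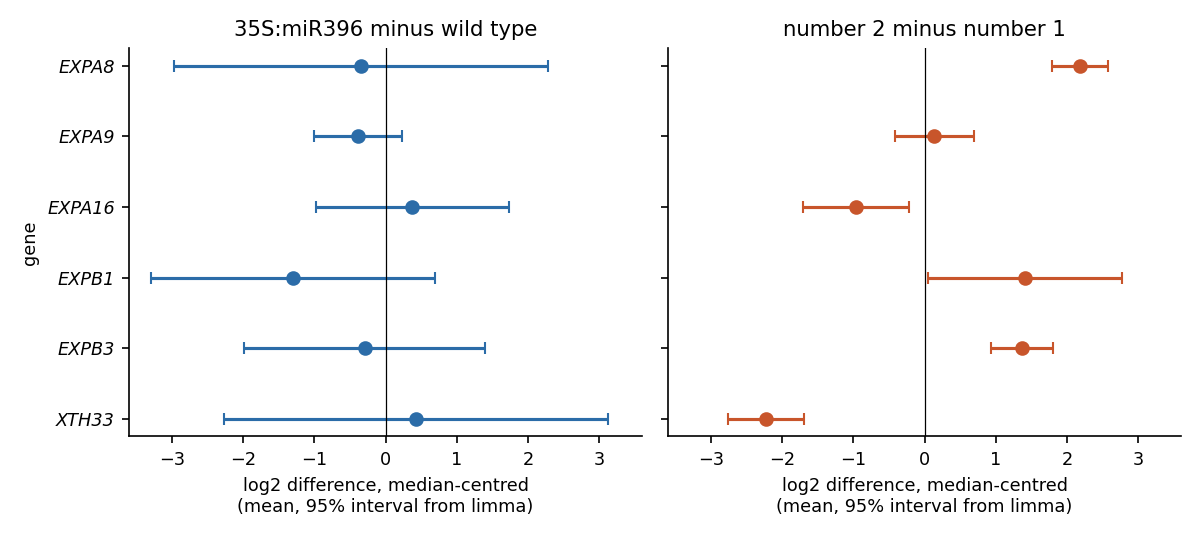
Log2 differences of the 6 genes after median centring, as means with limma's 95% intervals (n = 2 arrays against 2), for 35S:miR396 minus wild type (left) and number 2 minus number 1 (right). All 6 intervals on the left include 0. On the right those of EXPA8, EXPB3, EXPB1, EXPA16 and XTH33 do not, of which EXPA8, EXPB3 and XTH33 passed after adjustment. Over all tested probe sets 32.4% had an unadjusted limma p under 0.05 between the numbers. After adjustment 9.00% passed as higher in number 2 and 9.94% as lower.

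The genotype comparison addresses whether overexpression of miR396 changes these transcripts. In the limma fit across all probe sets 0 of 15922 passed an adjusted p of 0.05, that is 0.00%, and 0 of the 6 genes did, while 103 probe sets (0.647%) and 0 of the 6 genes lay under an unadjusted p of 0.05. The error in this fit includes the spread between the numbers, which widens the intervals of EXPA8, EXPB3 and XTH33. The median log2 fold change of the 6 genes was -0.32, with 4 below 0 and 2 above, against 0.00 over all tested probe sets. Leaving out 35S:miR396 1 turned the sign for EXPA8 (0.63), EXPA16 (-0.04), EXPB3 (0.31) and XTH33 (-0.76). Leaving out wild type 2 also turned it for these 4 genes (0.86, -0.17, 0.46 and -0.61 in that order). With an array left out, the numbers are not balanced between the genotypes, so the difference between the numbers enters these values. With 2 arrays in each group no exact permutation test can reach 0.05, between the genotypes or between the numbers.

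Within a number, the ratio of 35S:miR396 to wild type had the same sign in number 1 and number 2 for 6 of 6 genes after centring. That was so for 49.8% of all tested probe sets. The ratios were below 1 for EXPA8, EXPA9, EXPB1 and EXPB3, and above 1 for EXPA16 and XTH33. In the deposited values EXPA9 in number 2 and EXPA16 in number 1 had the other sign. With 1 array for each genotype and number, these ratios have no replicate check. The log2 ratio in number 2 minus that in number 1 was 1.32 for EXPB1 and -0.45 to 0.43 for the other 5 genes, and 5.55% of tested probe sets differed by at least 2-fold in either direction. For EXPA8 this difference was -0.45 after centring and 0.01 in the deposited values, so its size rests on the scaling. Those of EXPB3 and XTH33 were negative after centring, at -0.30 and -0.29, and positive in the deposited values, at 0.16 and 0.17.

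**Figure D3:**
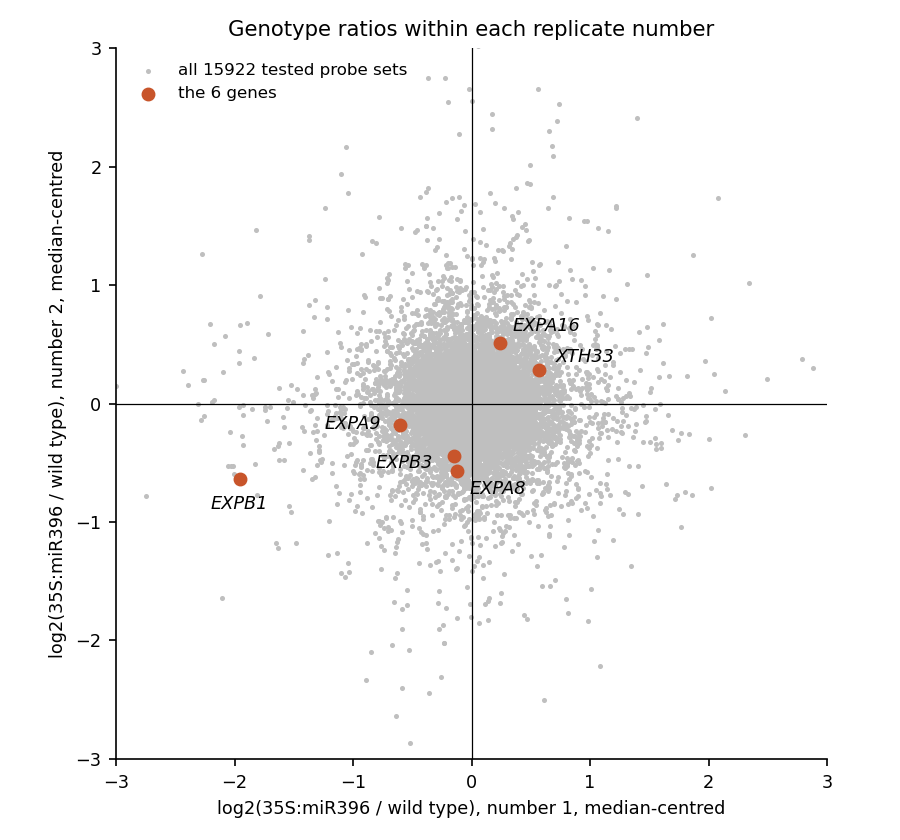
Log2(35S:miR396 / wild type) within number 1 (x) and within number 2 (y), both after median centring, for the tested probe sets (grey) and the 6 genes (orange, named). 10 of 15922 probe sets lie outside the axes, which end at 3. All 6 genes lie in the quadrants where both ratios have the same sign, and EXPB1 lies far to the left.

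Between the numbers, 2 of the 6 genes passed as higher in number 2 (EXPA8 and EXPB3) and 1 as lower (XTH33). Over all tested probe sets 9.00% passed as higher and 9.94% as lower in limma. The arrays of the numbers did not overlap for 3 genes that were higher in number 2 (EXPA8, EXPB1, EXPB3), where 27.0% of probe sets behaved so, and for 2 that were lower (EXPA16, XTH33), where 34.1% did. Lack of overlap alone was thus common on these arrays. A difference of at least 2-fold in both genotypes was less so. It was found for 1.98% of probe sets in the higher direction, where EXPA8 and EXPB3 belong, and for 1.44% in the lower direction, where XTH33 belongs. The median size of the log2 difference between the numbers was 1.39 for the 6 genes and 0.25 for all tested probe sets. The 6 genes were chosen with earlier results of these data known. Their sizes, ranks and counts beside all tested probe sets thus describe them and test nothing. In the deposited values 76.9% of the calls between the numbers were higher in number 2, against 47.5% after centring, and the median log2 difference over all tested probe sets was 0.16, against -0.04 after centring. The calls and directions of EXPA8, EXPB3 and XTH33 were the same in both.

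The log2 differences of the 5 tested leaf, root and guard cell markers between the numbers lay between -0.39 and 0.32, smaller in size than those of EXPA8, EXPB3 and XTH33. LHCB4.2 passed as lower in number 2 (log2 difference -0.39, limma adjusted p = 0.0124), as 1 of the 3 leaf markers, whose summed signal was 30662 and 29338 on the arrays of number 2, against 28026 and 32725 on those of number 1. The root marker PYK10 was at 1497 and 1195 in number 2, against 1197 and 1321 in number 1, and the guard cell factor FAMA at 146.0 and 107.1, against 93.7 and 81.6. These signals are not centred. After centring, PYK10 and FAMA overlapped between the numbers. The centred log2 differences of LHCB4.1, LHCB4.2 and PSBW were -0.09, -0.39 and -0.18. LHCB4.2 and PSBW were lower in number 2 without overlap, as were 34.1% of tested probe sets. The part of such cell types in the shifts was not tested.

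Genes of both directions were also found in the wider family. Of 36 genes of the expansin superfamily, 18 were paired with a probe set alone and 14 were tested, of which 3 passed as higher in number 2 (EXPA8, EXPB3 and EXLB1) and 2 as lower (EXLA1 and EXLA2). The shares over all tested probe sets were 9.00% higher and 9.94% lower. The median log2 difference of the 14 was 0.10, against -0.04 for all tested probe sets, and it was -0.05 without 35S:miR396 1. The 14 include the expansins described above. Of the 9 others, 1 passed as higher in number 2 and 2 as lower, with a median log2 difference of -0.37. Between the genotypes 0 of the 14 passed, with a median log2 fold change of -0.05, 6 above 0 and 8 below.

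The 3 expansin-like A genes were lower in number 2 without overlap, as XTH33 was, and 2 of them passed. Over all tested probe sets 34.1% were lower without overlap and 9.94% passed as lower. EXLA2 was at 124.0 and 100.7 in 35S:miR396 2 and wild type 2, against 399.5 and 400.1 in 35S:miR396 1 and wild type 1b, a log2 difference of -2.04 ± 0.14 (SE, n = 2 each, limma adjusted p = 9.51e-05). EXLA1 was at 1952.8 and 1565.4 in number 2, against 3040.3 and 3031.4 in number 1, a log2 difference of -0.99 (adjusted p = 5.43e-04). EXLA3, at 18.0 and 14.6 against 38.9 and 27.3, had a log2 difference of -1.21 that did not pass (adjusted p = 0.0669). EXLB1, the single expansin-like B gene, was at 129.0 and 121.7 in number 2, against 25.4 and 67.8 in number 1, a log2 difference of 1.40 (limma adjusted p = 0.0207). This call was lost without the trend on mean level in limma (adjusted p = 0.109). The genotypes of all 4 overlapped. The alpha-expansins EXPA4, EXPA15 and EXPA20 and the beta-expansins EXPB2 and EXPB5 did not pass between the numbers, with log2 differences from -0.63 (EXPB5) to 0.45 (EXPB2).

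Of 33 XTH genes 10 were paired with a probe set alone and 7 were tested, of which 4 passed as lower in number 2 and 1 as higher. Over all tested probe sets 9.94% passed as lower and 9.00% as higher. Of the 6 tested XTH genes other than XTH33, 3 passed as lower and 1 as higher, with a median log2 difference of -0.24. XTH16 was the lowest after XTH33, at 306.7 and 269.9 in number 2, against 565.5 and 749.5 in number 1, a log2 difference of -1.38 ± 0.10 (SE, n = 2 each, limma adjusted p = 1.14e-04). XTH18 (-0.45, adjusted p = 0.0272) and XTH27 (-0.33, adjusted p = 0.0228), which RefSeq names EXGT-A3, passed with small differences. XTH32 was higher in number 2 (0.56, adjusted p = 0.0252). The calls of XTH18, XTH27 and XTH32 were lost under some alternatives. In the deposited values only XTH16, XTH32 and XTH33 passed, and without 35S:miR396 1 the same 3 did. Without 35S:miR396 2 only XTH16 and XTH33 passed, and without wild type 2 XTH16 and XTH33 passed as lower and XTH19 and XTH32 as higher. Without the trend in limma XTH16 and XTH33 passed. With all 4 arrays XTH19 and XTH20 did not pass. The median log2 difference of the 7 was -0.33, against -0.04 for all tested probe sets, and 0 of 7 passed between the genotypes, with a median of 0.13. XTH19 was at 62.5 and 137.3 in 35S:miR396, against 65.9 and 62.7 in wild type. The genotypes overlapped in the deposited values, and after centring both 35S:miR396 arrays lay above both wild-type arrays, with a log2 fold change of 0.57 (limma adjusted p = 1.00). Such a lack of overlap held for 9.18% of all tested probe sets in that direction.

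**Figure D4:**
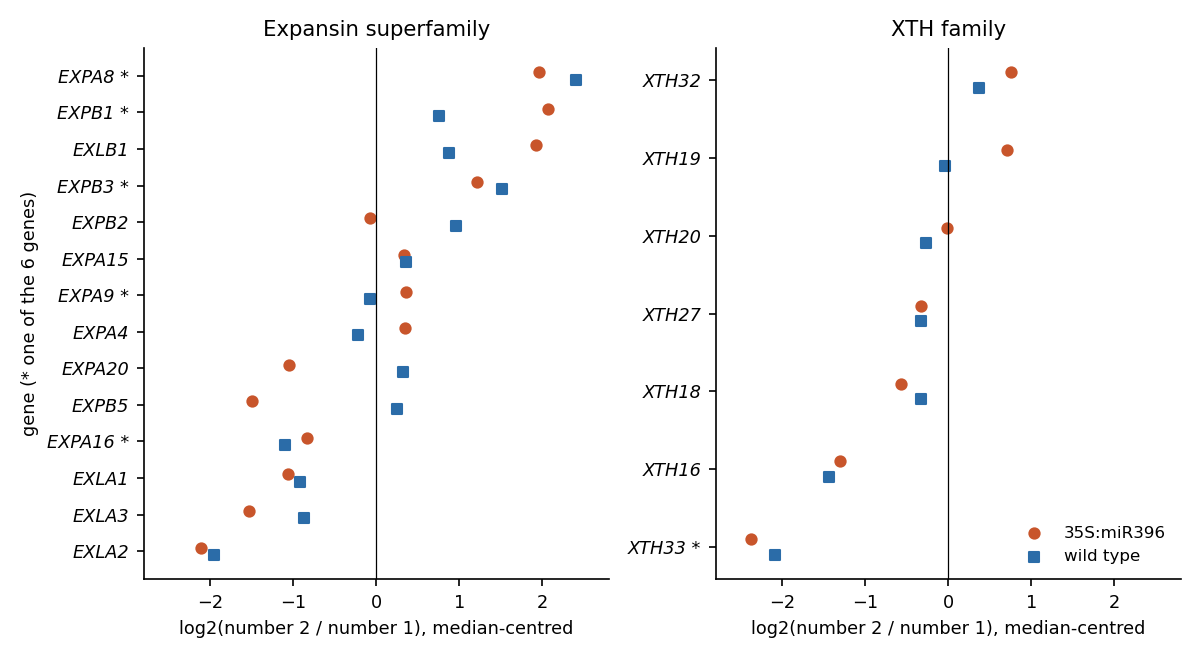
Log2 ratio of number 2 to number 1 after median centring in 35S:miR396 (circles) and wild type (squares) for the tested genes of the expansin superfamily (left) and the XTH family (right), ordered by their mean. Each point rests on 2 arrays. EXPA8, EXPB1, EXLB1 and EXPB3 lie right of 0 in both genotypes, while EXPA16, the EXLA genes, XTH16 and XTH33 lie left of it in both.

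Other wall genes were few. COBRA (COB), which guides cellulose deposition in elongating cells, was the 1 tested of 18 cellulose synthesis genes and was lower in number 2, at 1792.0 and 1670.8 against 2333.7 and 2339.2 in number 1 (log2 difference -0.63, limma adjusted p = 0.00439). The pectin methylesterase PME35, which RefSeq names PME61, the 1 tested of 17 pectin genes, and the xyloglucan glucan synthase CSLC4, the 1 tested of 8 xyloglucan genes, did not pass between the numbers (0.23 and -0.19). None of the 3 passed between the genotypes. The annotation paired 0 of the 3 listed proton pumps, which acidify the wall, with a probe set alone.

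The genes with the most similar course over the 4 arrays were sought among 8765 tested probe sets of a single gene, by the Euclidean distance between centred log2 values after each gene's mean was removed. The nearest to EXPA8 was AT1G60590 (distance 0.11), at 134.5 and 169.6 in number 2, against 23.8 and 30.7 in number 1. The nearest to EXPB3 was scpl20 (0.018), a serine carboxypeptidase-like gene by its name, at 246.3 and 293.5 against 80.0 and 104.8. For XTH33 it was AT3G62950 (0.28), at 367.4 and 318.1 against 1363.6 and 1348.5. The nearest to EXPA9, EXPA16 and EXPB1 were AT5G49060 (0.037), AT3G12020 (0.065) and AT4G17860 (0.11). With 4 arrays and 8765 candidates, such matches describe these arrays only.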

How the data were processed

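The values the authors deposited are linear-scale intensity readings, 1 per probe set, and MAS5 is the tool given in the submitters' processing notes; its version, scaling target and detection calls are not given in the sources used here. The 64 control probe sets among 22810 were removed. The annotation gave 13513 of the others 1 gene, and RefSeq names of TAIR10.1 matched 13436 by gene ID; no coordinates or sequences were used. The 6 values at or under 0 were set to 0.1, log2 was taken, each array was centred on its median, and the dimmest 30% of probe sets by mean log2 signal were removed. Genotypes, and replicate numbers, were compared in R 4.3.3 by limma 3.58.1 (linear fit, eBayes with a trend, two-sided, Benjamini-Hochberg over all tested probe sets, threshold 0.05), without a block. Tables and figures used Python 3.11.15, pandas 2.3.3, numpy 2.4.6 and matplotlib 3.10.9. The fit was tested on simulated data for the sign and size of planted changes. The simulated noise was independent between arrays, while the deviations of same-numbered arrays in these data correlated at 0.63. The calls under such shared deviations were not tested.

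Groups came from the sample titles. Replicate 1b was taken with 1. Alternatives were deposited values, quantile normalization, centring on a mean trimmed by 2%, no filter, removal of the dimmest 60%, an added pseudocount of 2.4, no trend, robust fitting, each array left out, and the replicate number as a block (genotype as a term for the numbers). The 6 genes and the lists were chosen with earlier results of these data known. Named are the 6 genes, other measured expansin and XTH genes, up to 4 genes of each other wall list, and the nearest gene to each of the 6.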

Additional observations from a re-analysis of the deposited data

Results flagged for a closer look

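A probe set shared by EXPA25 and EXPA23, which the annotation gives to more than a single locus and which entered no comparison, gave signals of 12.0 and 7.4 in 35S:miR396, against 2.3 and 0.7 in wild type. The lowest 35S:miR396 signal was 3.22 times the highest wild-type signal. All 4 signals lie under 15.8, the filter limit, and which of the 2 genes is read was not tested. It was listed because it lies outside the main measurement and both its 35S:miR396 signals lie above both wild-type signals, the only direction that was listed. Such a lack of overlap held for 9.18% of tested probe sets after centring, and this probe set was not among those tested. The other such expansin probe set, shared by EXP26 and EXPA22, overlapped (2.2 and 1.1 against 2.0 and 8.1).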

How the results depend on the processing

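Between the genotypes 0 probe sets passed under 12 of 13 alternatives. With the replicate number as a block 18 passed (5 higher, 13 lower in 35S:miR396), none of them among the 6 genes, whose lowest adjusted p was then 0.494 (EXPB1). In that fit 902 of 15922 probe sets lay under an unadjusted p of 0.05, against 103 (0.647%) without the block. EXPA8 (limma adjusted p = 0.634) and EXPB1 were among the 902, and neither passed after adjustment. The labels do not say that the number pairs the arrays, and the deviations of same-numbered arrays correlated at 0.63 over tested probe sets. With each array left out in turn, the genotype log2 fold change ranged from -1.55 to 0.86 for EXPA8, from -0.57 to -0.22 for EXPA9 and from -0.17 to 0.92 for EXPA16. It ranged from -2.33 to -0.27 for EXPB1, from -1.05 to 0.46 for EXPB3 and from -0.76 to 1.61 for XTH33. With an array left out, the numbers are not balanced between the genotypes, so the difference between the numbers enters these fold changes. Between the numbers the count of 3016 was 1127 without a trend and 2290 to 2665 with arrays left out. There the log2 difference was 1.89 to 2.46 for EXPA8, 1.14 to 1.59 for EXPB3, -2.52 to -1.94 for XTH33, -1.22 to -0.71 for EXPA16, 0.43 to 2.38 for EXPB1 and -0.17 to 0.44 for EXPA9. EXPA8 passed under all 13 alternatives, and EXPB3 and XTH33 under the 12 that tested them; with the lowest 60% left out EXPA8 alone of the 6 was tested. EXPB1 passed in the deposited values (1.60), with genotype as a term (1.41) and without wild type 1b (2.38), EXPA16 and EXPA9 in none. The difference between the ratios of the numbers for EXPA9 was 0.89 in the deposited values, against 0.43 after centring.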
